A study of Homo sapiens with 12 samples.

Results

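Metallothioneins are small, cysteine-rich proteins that bind zinc, copper and cadmium and are used as a readout of metal load and stress. The 8 metallothionein genes MT2A, MT1E, MT1M, MT1A, MT1F, MT1G, MT1H and MT1X were taken by name from an expression table of 34687 gene rows. The naming rule used no measured value, but earlier results of these data were known when the genes were chosen. RNA came from 2 human cell lines, HCT116, a colon cancer line, and PANC1, a pancreatic adenocarcinoma line, and was read on Illumina BeadChip arrays as signal intensity. Cells received 0.05% DMSO, the solvent and control, or 1 of the drugs ICG-001 and C646, each at 10 uM, for 12 or 96 h. Neither line carried a genetic change made for the study, and each is a single established line, so no other donor of its tissue is represented. ICG-001 is a small molecule that binds the co-activator CBP and blocks its contact with β-catenin. C646 competes with acetyl-CoA in the histone acetyltransferase site of p300 and is taken to act on the closely related CBP as well.

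The deposited table gives 1 column to each of the 12 groups, in which the authors averaged 2 arrays, except that the PANC1 ICG-001 12 h column averages 3. No spread between replicates can be computed from such columns, so no test was run and every difference is a size whose precision is limited by the number of arrays. A gene entered a comparison when its signal was above the detection limit in at least 1 of the 2 columns, and it is said to have risen, fallen or changed only at a ratio of at least 1.5. The limit, set from the spread of the dim values of each column, was 143.1 to 144.0 signal units in HCT116 and 134.7 to 138.0 in PANC1, and 44.9% to 45.6% and 44.5% to 47.9% of genes lay above it. Signals are compared between columns of 1 line and never between genes, because probes differ in brightness. The lines are compared through ratios, since they appear to have been normalized apart. In a bulk sample, fewer cells that express a gene and less RNA of it per cell cannot be told apart.

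The metallothionein genes lie side by side on chromosome 16. When zinc or another metal is in excess, the zinc-finger factor MTF1 binds metal response elements in their promoters and raises transcription. Glucocorticoids and oxidative stress also raise several of the genes. MT2A and the MT1 genes are broadly expressed and are induced by metals in epithelial cells of the gut and pancreas, where they buffer zinc. In the RefSeq annotation the order along the chromosome is MT2A, MT1E, MT1M, MT1A, MT1F, MT1G, MT1H and MT1X, with other family genes and pseudogenes between them.

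The promoter sequences are shown because the metal response elements that MTF1 reads lie in them. RefSeq promoters of build GRCh38.p14 matched 3 of the 8 genes, namely MT2A (chr16:56608334-56608583, plus strand), MT1H (chr16:56669564-56669813, plus strand) and MT1X (chr16:56682220-56682469, plus strand). Each line gives the 250 bases before the start site, 5′ to 3′, and capitals mark every match to the metal response element core, searched as TGCACNC and TGCGCNC on both strands.
MT2A: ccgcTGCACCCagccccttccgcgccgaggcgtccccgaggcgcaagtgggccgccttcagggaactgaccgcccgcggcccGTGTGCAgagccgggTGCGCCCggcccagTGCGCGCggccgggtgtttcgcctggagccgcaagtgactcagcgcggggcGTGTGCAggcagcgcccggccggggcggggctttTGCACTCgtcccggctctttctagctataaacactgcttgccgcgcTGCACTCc
MT1H: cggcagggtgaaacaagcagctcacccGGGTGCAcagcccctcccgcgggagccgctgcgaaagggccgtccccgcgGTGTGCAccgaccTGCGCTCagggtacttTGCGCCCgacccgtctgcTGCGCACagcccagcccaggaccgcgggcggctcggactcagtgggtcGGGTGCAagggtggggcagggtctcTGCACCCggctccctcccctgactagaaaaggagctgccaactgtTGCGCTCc
MT1X: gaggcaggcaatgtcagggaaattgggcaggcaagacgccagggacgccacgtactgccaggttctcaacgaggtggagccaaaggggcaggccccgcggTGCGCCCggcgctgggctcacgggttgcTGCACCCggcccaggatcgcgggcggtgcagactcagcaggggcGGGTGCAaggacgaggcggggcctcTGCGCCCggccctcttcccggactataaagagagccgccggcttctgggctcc
MT2A held 7 such stretches, MT1H 8 and MT1X 4, and none overlapped another. The stretches nearest to the start site began 8 bases before it in MT2A and MT1H and 53 bases before it in MT1X. Of 35116 promoter windows of the same length, 24.8% held at least 1 stretch, 0.208% held at least 4 and 0.0228% held at least 7. A match is a description of the letters and is not evidence of binding. MT1H, with the most stretches of the 3, lay at or near background in both lines. No link between stretches and signal was tested.

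Both lines expressed most of the metallothioneins in every column. Of the 8 genes, 6 were above the limit in all 6 HCT116 columns and 7 in all 6 PANC1 columns. MT1M was above the limit in 0 of 6 HCT116 columns and in 6 of 6 PANC1 columns. MT1H was above it in 2 of 6 HCT116 columns and in 0 of 6 PANC1 columns.

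MT2A encodes the most widely expressed metallothionein. Its signal in HCT116 was 9433 with DMSO 12 h, 8021 with DMSO 96 h, 16827 with ICG-001 12 h, 16790.3 with ICG-001 96 h, 10099.8 with C646 12 h and 10316 with C646 96 h. The ICG-001 columns stood above the other four, with a gap of 1.63-fold to the nearest of them. PANC1 signals of MT2A were 21179 with DMSO 12 h, 15036 with DMSO 96 h, 16252 with ICG-001 12 h, 13849 with ICG-001 96 h, 12287 with C646 12 h and 10893 with C646 96 h. Here the DMSO 12 h column was the highest, C646 gave the lowest column at each time, and the gaps between neighbours were at most 1.30-fold.

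MT1A, MT1E and MT1X encode MT1 proteins that bind metals in the same way as MT2A. From here on, where a treatment has a pair of values, the 12 h value comes before the 96 h value. MT1A in HCT116 was 10583 with DMSO 12 h, 8261 with DMSO 96 h, 16971 with ICG-001 12 h, 16004 with ICG-001 96 h, 9974 with C646 12 h and 9867 with C646 96 h. In PANC1 MT1A was 12880.0 and 11498 under DMSO, 14404 and 13600 under ICG-001 and 11261 and 9613 under C646. The ICG-001 columns of MT1A were the highest in both lines, by 1.51-fold over the nearest column in HCT116 and by much less in PANC1.
MT1E in HCT116 was 5783 and 3356 under DMSO, 8791 and 8087 under ICG-001 and 6266 and 4973 under C646. PANC1 signals of MT1E were 5000 and 3771 under DMSO, 5388 and 5665 under ICG-001 and 4594 and 3342 under C646. The DMSO 96 h column was the lowest for MT1E in HCT116, and C646 96 h was the lowest in PANC1.
MT1X in HCT116 was 1922 and 1723 under DMSO, 3332 and 6309 under ICG-001 and 1822 and 2808 under C646. PANC1 signals of MT1X were 1480.4 and 1439 under DMSO, 1954 and 1707 under ICG-001 and 1642 and 1263 under C646. The HCT116 ICG-001 96 h column stood 1.89-fold above the next column, while the PANC1 columns of MT1X were spaced by at most 1.14-fold.

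MT1G, another zinc-binding MT1 gene, separated ICG-001 from DMSO and C646 most cleanly in HCT116. Its HCT116 signals were 412 and 330.5 under DMSO, 893 and 872 under ICG-001 and 410.0 and 428 under C646. The ICG-001 columns of MT1G lay 2.04-fold above the highest of the other four. In PANC1 MT1G was 1263 and 928 under DMSO, 1305 and 1321 under ICG-001 and 1010.0 and 823 under C646, with neighbours at most 1.25-fold apart.

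MT1F did not share the ICG-001 pattern. In HCT116 MT1F was 666 and 875 under DMSO, 620.1 and 960.2 under ICG-001 and 676 and 892 under C646. The 96 h columns were the higher ones for every treatment in HCT116. PANC1 signals of MT1F were 220.2 and 334 under DMSO, 274 and 267 under ICG-001 and 262 and 283 under C646, so only DMSO and C646 were higher at 96 h than at 12 h.

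MT1M and MT1H were the dim genes. MT1M in PANC1 was 319 and 223 under DMSO, 324 and 637 under ICG-001 and 220.0 and 196 under C646. The PANC1 ICG-001 96 h column stood 1.96-fold above the next column, and the 6 HCT116 columns, at 116 to 124, were all under the limit. MT1H lay at 134 to 151 in HCT116 and at 117 to 124 in PANC1, at or near the background of both lines.

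**Figure D1:**
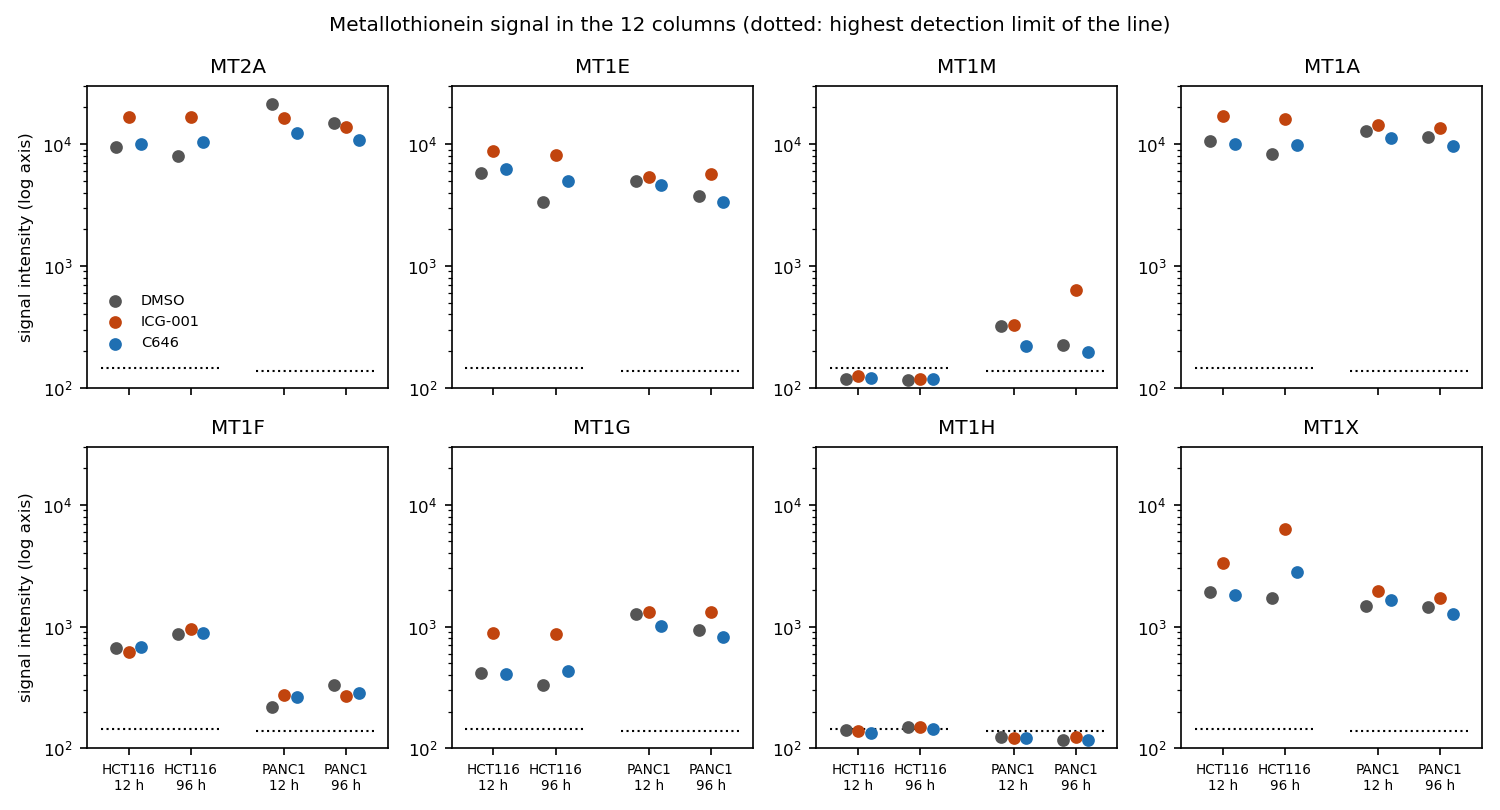
Signal intensity (log axis) of the 8 metallothioneins in each of the 12 columns, by line and time on the horizontal axis. Each point is 1 column, the authors' mean of 2 or 3 arrays with no error available, and the dotted lines give the highest detection limit of each line. The HCT116 ICG-001 points of MT2A, MT1E, MT1A, MT1G and MT1X sit above the other HCT116 points, and MT1M is above the limit only in PANC1.

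ICG-001 raised 5 metallothioneins in HCT116 at both times. Beside the 12 h DMSO column, MT1G rose 2.17-fold, MT2A 1.78-fold, MT1X 1.73-fold, MT1A 1.60-fold and MT1E 1.52-fold. MT1F, at a log2 ratio of -0.10, was the only gene of the 6 that entered and did not change, so 5 of 6 changed, all higher. Over all 17050 genes that entered, 8.97% changed, and 4.82% rose. Near-identical MT1 transcripts may be read by more than 1 probe, so the genes that changed may not be separate counts, which was not tested. The median log2 ratio was 0.74 over these 6 genes and 0.00 over all genes, whose middle 95% ran from -0.69 to 0.76. MT2A, MT1G and MT1X lay above that range, and MT1A and MT1E inside it. With quantile normalization over all 12 columns 4 of the 5 genes passed at 12 h, since MT1E then had a log2 ratio of 0.51.

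After 96 h of ICG-001 in HCT116 the same 5 genes were higher than DMSO, and MT1X now led. MT1X rose 3.66-fold, MT1G 2.64-fold, MT1E 2.41-fold, MT2A 2.09-fold and MT1A 1.94-fold. The ICG-001 signals of MT2A and MT1A were 0.70 and 0.66 of the highest signal in that column, and that of MT1X 0.26. Whether the ratios of such bright genes are understated was not tested. MT1X ranked 33 from the highest of 17101 genes and MT1G 78. All 5 lay above the middle 95% of all genes, which ran from -0.77 to 0.78 in log2 ratio. MT1F (0.13) and MT1H (-0.02), both given as log2 ratios, did not change, so 5 of 7 changed, all higher, against 10.2% of all genes changed and 5.13% higher. Against the DMSO column of the other time, a control tried after seeing the data, MT1E fell short of the threshold at 96 h, with a log2 ratio of 0.48, and 4 genes changed. The ICG-001 signals of MT2A, MT1A, MT1E and MT1G were close at 12 and 96 h, while the DMSO signals of the 4 genes were lower at 96 h.

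C646 gave much smaller ratios in HCT116. At 12 h, 0 of the 6 genes that entered changed, with log2 ratios from -0.09 (MT1A) to 0.12 (MT1E) and a median of 0.01, and 4.10% of all genes changed. At 96 h, 1 of 7 changed, MT1X, which rose 1.63-fold, against 3.13% of all genes changed and 1.90% higher. Against the DMSO 12 h column 0 of the genes changed, with log2 ratios of 0.55 for MT1X, -0.22 for MT1E and -0.10 for MT1A. Against the DMSO 96 h column MT1E was just short of the threshold, with a log2 ratio of 0.57. The other log2 ratios at 96 h were 0.37 for MT1G, 0.36 for MT2A, 0.26 for MT1A, 0.03 for MT1F and -0.07 for MT1H, with a median over the 7 of 0.36.

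In PANC1, ICG-001 changed 0 of 7 metallothioneins at 12 h, where 2.5% of all genes changed. Log2 ratios at 12 h ran from -0.38 for MT2A to 0.40 for MT1X, with a median of 0.11. At 96 h 2 of 7 changed, both higher, against 7.38% of all genes changed and 3.84% higher. MT1M rose 2.86-fold and ranked 35 from the highest of 17391 genes. MT1E was 1.502-fold higher, barely past the threshold, and no longer reached it once ratios were centred on the median of all genes. Against the DMSO 12 h column 1 gene rose and 1 fell, with log2 ratios of 1.00 for MT1M and -0.61 for MT2A, and MT1E was at 0.18. The other PANC1 log2 ratios at 96 h were 0.51 for MT1G, 0.25 for MT1X, 0.24 for MT1A, -0.12 for MT2A and -0.33 for MT1F.

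C646 in PANC1 gave log2 ratios to DMSO of the same time below 0 for most metallothioneins. At 12 h MT2A fell, with DMSO 1.72-fold above C646, and it was the only gene of 7 that changed, against 6.68% of all genes changed and 2.69% lower. The log2 ratios of the others at 12 h were -0.54 for MT1M, -0.32 for MT1G, -0.19 for MT1A, -0.12 for MT1E, 0.15 for MT1X and 0.25 for MT1F. At 96 h 0 of 7 changed, against 4.0% of all genes, and all 7 log2 ratios were below 0, from -0.47 for MT2A to -0.17 for MT1G and MT1E. The median was -0.19 at both times. The counts depended on the control column: against the DMSO column of the other time 0 of 7 changed at 12 h, where the log2 ratio of MT2A was -0.29, and 3 of 7 fell at 96 h. Signs at 12 h depended on the control column too. The C646 12 h signals of MT1E and MT1G lay below DMSO 12 h but above DMSO 96 h, and MT1F did the reverse. All ratios of ICG-001 and of C646 to DMSO at 1 time share the DMSO column, so an unusual DMSO value moves both.

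**Figure D2:**
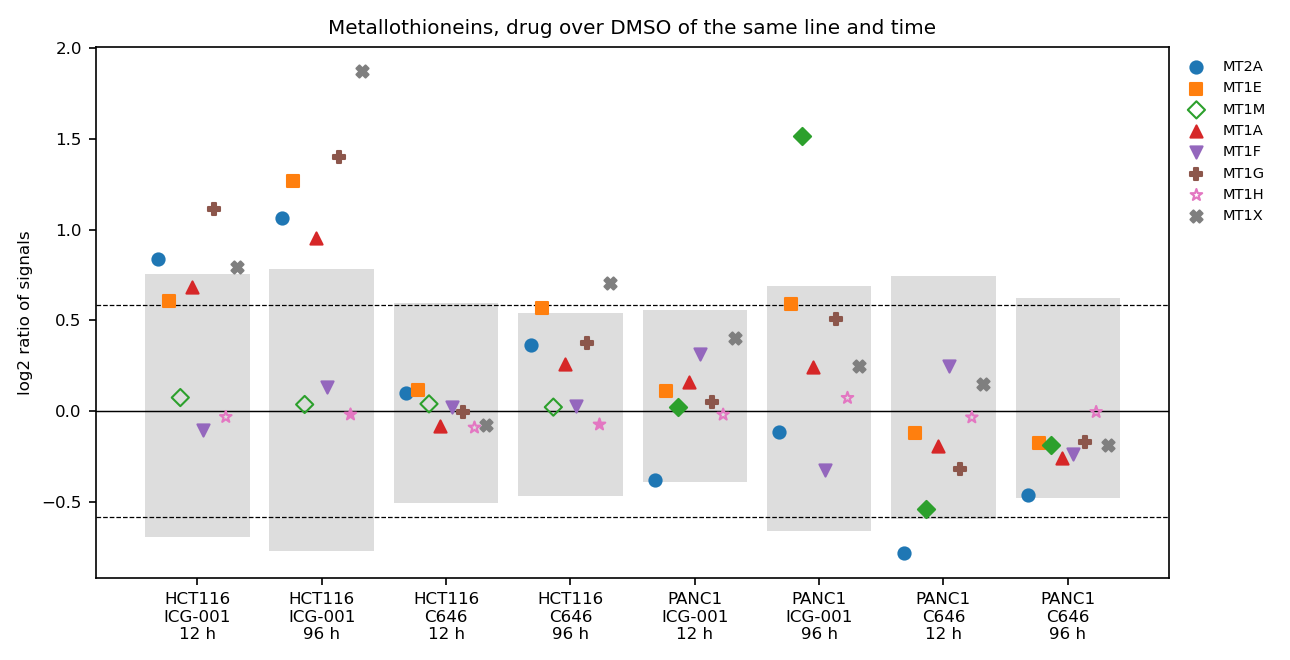
Log2 ratio of signals, drug over DMSO of the same line and time, for the 8 metallothioneins in 8 comparisons. Filled points entered the comparison, open points were under the limit in both columns, grey bars give the middle 95% of all genes that entered, and dashed lines mark 1.5-fold. In HCT116 with ICG-001 96 h, 5 points lie between 0.95 and 1.87, above the grey bar, and in PANC1 with ICG-001 96 h MT1M lies at 1.52.

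The drugs were also set against each other at the same dose and time, which leaves the DMSO column out. In HCT116 at 12 h, ICG-001 was higher than C646 by 2.18-fold for MT1G, 1.83-fold for MT1X, 1.70-fold for MT1A and 1.67-fold for MT2A. These were 4 of the 6 genes that entered, against 6.25% of all genes changed and 3.44% higher with ICG-001. MT1E, at a log2 ratio of 0.49, and MT1F, at -0.12, did not change. At 96 h 5 of 7 were higher with ICG-001, against 6.52% of all genes changed and 3.24% higher. MT1X was 2.25-fold higher and MT1G 2.04-fold, and MT2A, MT1E and MT1A were each 1.62-fold to 1.63-fold higher.

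The same contrast in PANC1 gave log2 ratios above 0 for all 7 genes at 12 h, from 0.07 (MT1F) to 0.56 (MT1M). None of the 7 reached 1.5-fold there, and 2.49% of all genes did. At 96 h ICG-001 was higher than C646 by 3.26-fold for MT1M, 1.70-fold for MT1E and 1.61-fold for MT1G, 3 of 7 genes, against 6.76% of all genes changed and 3.30% higher. MT1M ranked 12 from the highest of 17765 genes in this contrast. The remaining log2 ratios were 0.50 for MT1A, 0.44 for MT1X, 0.35 for MT2A and -0.09 for MT1F. For the genes that entered, the HCT116 medians were 0.75 and 0.70 and the PANC1 medians 0.36 and 0.50.

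Some of the genes differed between the DMSO columns of 12 and 96 h. Per the study's methods, cells for 96 h were started at a lower density, were passaged and had medium renewed daily. Time, density, passage and medium changes therefore cannot be told apart, also where the DMSO column of the other time is the control. In HCT116 MT1E fell, with the 12 h column 1.72-fold above the 96 h column, 1 of 7 genes, against 3.10% of all genes changed and 1.55% lower. The log2 ratios of DMSO 96 h over 12 h in HCT116 were -0.36 for MT1A, -0.32 for MT1G, -0.23 for MT2A, -0.16 for MT1X, 0.08 for MT1H and 0.40 for MT1F. In PANC1 MT1F rose 1.52-fold, 1 of 7 genes, against 1.31% of all genes changed and 0.979% higher. The log2 ratios of MT1M (-0.52), MT2A (-0.49), MT1G (-0.44), MT1E (-0.41), MT1A (-0.16) and MT1X (-0.04) in PANC1 were all below 0. MT1F was thus the gene with the highest ratio over time in both lines. The DMSO shift bears on the drug ratios, since both DMSO columns of a line serve as controls.

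**Figure D3:**
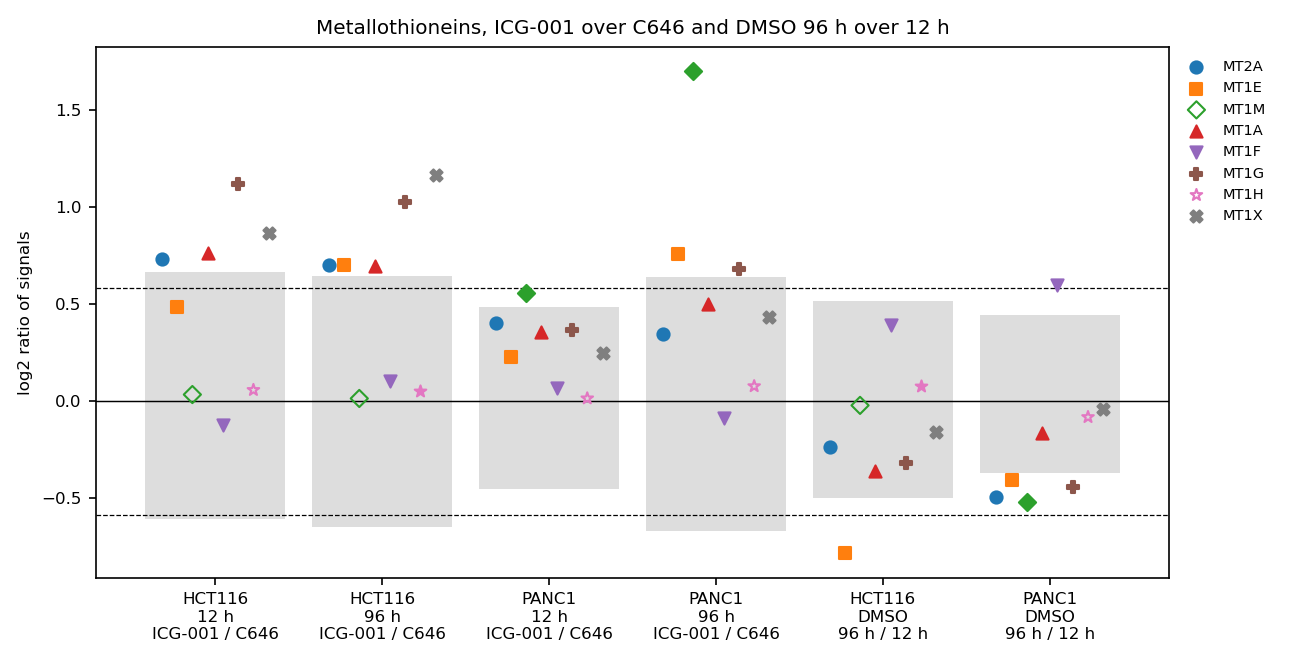
Log2 ratio of signals for the 8 metallothioneins, ICG-001 over C646 at the same line and time (4 comparisons) and DMSO 96 h over DMSO 12 h (2 comparisons). Symbols, grey bars and dashed lines are as in the plot of drug over DMSO. MT1M reaches 1.70 in PANC1 at 96 h, and MT1F is the highest point in both DMSO comparisons.

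The 8 genes did not all vary together over the 6 columns of a line. Among the 7 genes above the limit in at least 1 HCT116 column, the 21 pairs had a Pearson r of the log2 signals from -0.42 to 0.99, with a median of 0.67, and 9 pairs were over 0.8. MT2A and MT1G, MT1A and MT1G, and MT2A and MT1A had r values of 0.99, 0.99 and 0.98 in HCT116. In PANC1 the 21 pairs ran from -0.55 to 0.97, with a median of 0.66, and 7 were over 0.8. MT1F correlated below 0 with each of the other 6 genes in PANC1. These correlations describe 6 columns that share treatments, and near-identical MT1 transcripts may be read by more than one probe, a share that was not tested.

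Other rows of the family were set beside the 8 genes. MT1B, MT1JP, MT3, MT4 and the row named MT1P2, which RefSeq now calls MT1HL1, were under the limit in all 12 columns. MT1IP reached at most 146 and MT1L 141, in PANC1. A row named MTE, an older name that RefSeq gives to the pseudogene MT1IP, was bright, and since the MT1IP row itself lay near background the transcript that its probe reads is uncertain. MTE in HCT116 was 2229.8 and 1411 under DMSO, 4471 and 3688 under ICG-001 and 2000 and 1758 under C646. It rose 2.01-fold at 12 h and 2.61-fold at 96 h with ICG-001 in HCT116, and in PANC1 its log2 ratios to DMSO were 0.06 and 0.15 under ICG-001 and -0.47 and -0.42 under C646.

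MTF1, the factor that reads metal response elements, did not reach 1.5-fold in any comparison with DMSO. Its HCT116 signals were 230.3 and 233 under DMSO, 336 and 304 under ICG-001 and 296 and 266 under C646. In PANC1 MTF1 was 401 and 343 under DMSO, 378 and 317 under ICG-001 and 302 and 298 under C646. All 4 log2 ratios of MTF1 to DMSO were above 0 in HCT116, from 0.19 to 0.54, and all 4 were below 0 in PANC1, from -0.41 to -0.09.

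SLC30A1, the zinc exporter of the plasma membrane and a classical MTF1 target, rose 1.67-fold with ICG-001 at 12 h in HCT116. Its HCT116 signals were 244 and 245 under DMSO, 407 and 249 under ICG-001 and 275 and 293 under C646, so the rise was not seen at 96 h, when 5 metallothioneins were still higher. In PANC1 the log2 ratios of SLC30A1 lay between -0.49 and 0.26. SLC30A1 was the only one of the 10 measured zinc exporters and vesicle loaders that changed in a comparison with DMSO, where 6 or 7 entered. With ICG-001 12 h in HCT116 8.97% of all genes changed and 4.82% rose.

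Of the 14 zinc importers, 11 or 12 entered, and SLC39A10 was the one that changed most often. With ICG-001 in HCT116, 2 fell at 12 h, and 1 rose and 1 fell at 96 h, against 8.97% and 10.2% of all genes changed. In PANC1, 1 fell with ICG-001 96 h and 2 with C646 12 h, against 7.38% and 6.68% of all genes changed. SLC39A10 carries zinc into the cell and is known to be repressed by zinc through MTF1. Its HCT116 signals were 515 and 774 under DMSO, 244 and 340.2 under ICG-001 and 390.4 and 590.4 under C646. SLC39A10 under ICG-001 fell by 1.08 and 1.19 (log2) in HCT116, and at 96 h in PANC1 it fell by 0.85, while its C646 ratios in HCT116 were -0.40 and -0.39. SLC39A8, which imports zinc and manganese, fell by 0.87 with ICG-001 12 h in HCT116. SLC39A11 rose with ICG-001 96 h in HCT116, with a log2 ratio of 0.99. The other changes, SLC39A9 and SLC39A14, which fell by 0.59 and 0.73 on the log2 scale with C646 12 h in PANC1, are named to account for the count after their values were seen.

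Few copper genes changed in the comparisons with DMSO. All 11 entered every comparison with DMSO, and 2 changed in any of them. These changes were with ICG-001 in HCT116, where 1 fell at 12 h, and 1 rose and 1 fell at 96 h. Over all genes 8.97% and 10.2% changed there, and counts this small cannot be told apart from those shares. SOD1, the cytosolic copper and zinc superoxide dismutase, in HCT116 under ICG-001 fell by 0.64 and 0.81 in log2 ratio. ATOX1, the copper chaperone, rose with ICG-001 96 h in HCT116, with a log2 ratio of 0.64.

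Iron genes held the largest ratio among the metal lists. FTH1, the heavy chain of the iron store ferritin, had HCT116 signals of 1159 and 1356 under DMSO, 3364 and 5148 under ICG-001 and 1588 and 1920.2 under C646. Under ICG-001 the log2 ratio of FTH1 was 1.54 and 1.92 in HCT116 and, at 96 h in PANC1, 0.67, all of them rises. TFRC, the transferrin receptor that brings iron in, fell in PANC1 by 1.2 with ICG-001 96 h, 0.62 with C646 12 h and 0.61 with C646 96 h on the log2 scale. Of the 10 iron genes, 9 or 10 entered, and 2 of 9 rose with ICG-001 12 h in HCT116, FTH1 and HMOX1, where 4.82% of all genes rose and the median log2 ratio of the 9 was -0.15. At 96 h in HCT116 FTH1 rose and IREB2 fell, and in PANC1 at 96 h SLC11A2 fell beside TFRC. Over all genes 10.2% and 7.38% changed with ICG-001 96 h in HCT116 and PANC1. IREB2 and SLC11A2 were named after their values were seen.

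Heavy metal stress genes moved in both directions. Of 13 measured, 10 entered in HCT116 with ICG-001 12 h, where 2 rose (HMOX1 and SRXN1) and 4 fell (HSPA1B, HSPA8, DNAJB1 and HSPH1), against 8.97% of all genes changed, with a median log2 ratio of -0.14 over the 10. HSPA1B, an inducible heat shock protein, fell by 1.35 on the log2 scale there, and rose with C646 12 h in both lines, with log2 ratios of 0.71 in HCT116 and 0.78 in PANC1. The PANC1 rise depended on the control column, since HSPA1B was 1906 with DMSO 12 h, 3285 with DMSO 96 h and 3278 with C646 12 h. HSPA1A, HSPA1B and DNAJB1 also changed between the PANC1 DMSO columns. SRXN1, an antioxidant target of NRF2, rose under ICG-001, with log2 ratios of 1.17 and 1.47 in HCT116 and 0.90 at 96 h in PANC1. HMOX1, the heme-degrading enzyme that cadmium and oxidative stress induce, rose 0.69 with ICG-001 12 h in HCT116 and 1.02 with ICG-001 12 h in PANC1, both in log2 ratio. With ICG-001 96 h in HCT116 3 of 10 rose, HSPA8, GCLM and SRXN1, and 0 fell, against 10.2% of all genes changed. In PANC1 12 entered, of which 3 rose (HSPA1A, HSPA1B and BAG3) and 1 fell (DNAJB1) with C646 12 h, against 6.68% of all genes changed. ICG-001 in PANC1 raised 2 at 12 h (HMOX1 and SLC7A11) and 1 at 96 h (SRXN1), and C646 96 h changed 0. Over all genes 2.5%, 7.38% and 4.0% changed in these comparisons. The heat shock genes beside HSPA1B, BAG3, GCLM and SLC7A11 are named to account for these counts, after their values were seen.

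Glucocorticoid receptor targets were listed because glucocorticoids also induce metallothioneins. With ICG-001, 4 of 9 rose at 12 h and 2 of 9 at 96 h in HCT116, and 2 of 8 and 3 of 8 rose in PANC1, with 0 lower. Over all genes 4.82% and 5.13% rose in HCT116, and in PANC1 2.5% changed at 12 h and 3.84% rose at 96 h. In HCT116 the list had median log2 ratios of -0.09 and 0.30, and in PANC1 of 0.26 and 0.16. With C646 the counts were 1 of 9 lower (KLF9) and 1 of 9 higher (DUSP1) in HCT116, and 0 of 8 and 1 of 8 higher (KLF9) in PANC1. Over all genes 4.10% and 3.13% changed with C646 in HCT116, and 6.68% and 4.0% in PANC1. KLF9 and DUSP1 were named after their values were seen. TSC22D3, which encodes the glucocorticoid-induced leucine zipper, rose with ICG-001 by 1.68 and 0.86 in HCT116 and by 0.92 at 96 h in PANC1, on the log2 scale. NFKBIA, which encodes the inhibitor of NF-κB, rose with ICG-001 in PANC1 by 0.65 and 0.86 on that scale. SGK1, a kinase induced by glucocorticoids, rose at 96 h with ICG-001 in HCT116, with a log2 ratio of 0.92. FKBP5, a further gene of the list that the naming rule did not select, changed in 0 of the 8 comparisons with DMSO. It did change between ICG-001 and C646 at 96 h in HCT116.

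**Figure D4:**
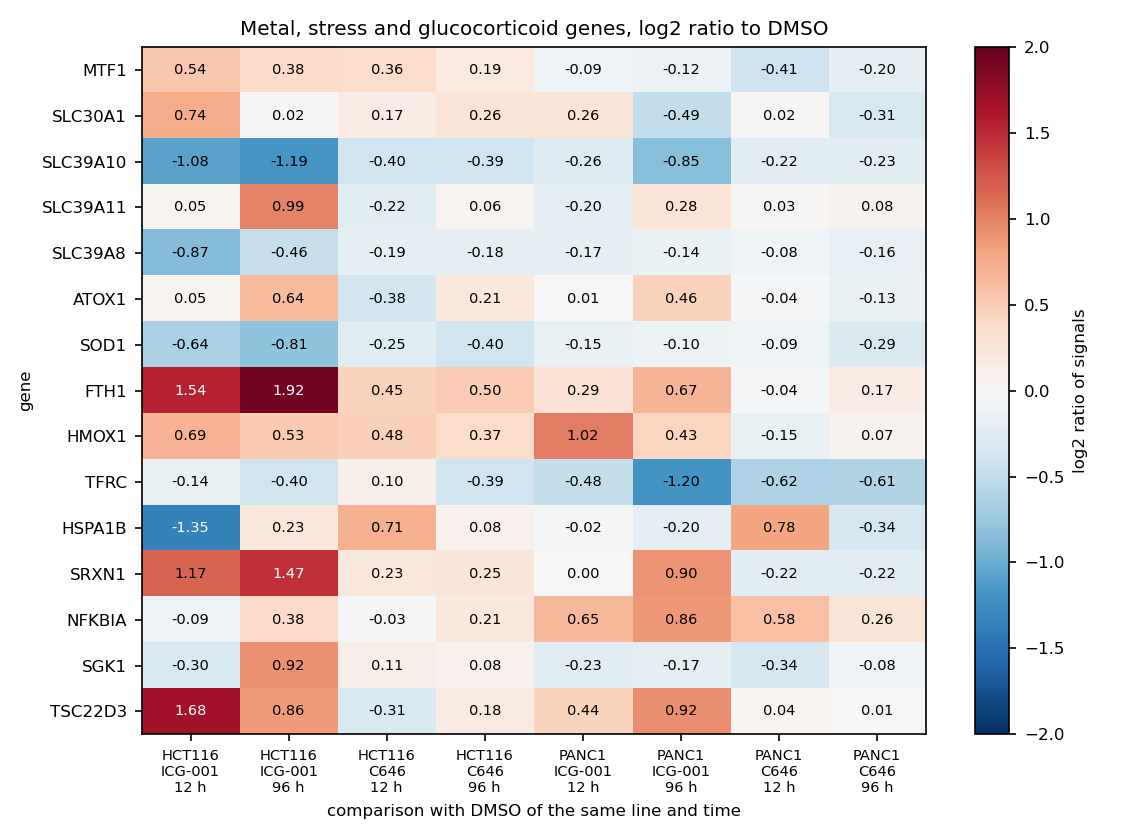
Log2 ratio of signals to DMSO of the same line and time for the 15 named metal, stress and glucocorticoid genes (rows) in 8 comparisons (columns), with each value printed in its cell and red for higher with drug. FTH1, SRXN1 and TSC22D3 are highest with ICG-001 in HCT116, SLC39A10 is below 0 in all 8 columns, and MTF1 has opposite signs in HCT116 and PANC1.

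Outside the family, 423 genes passed the limit somewhere in both lines and varied by at least 1 on the log2 scale in each. Ranked by Pearson r with the mean metallothionein profile over the 12 columns centred within each line, the genes with the highest values included HBEGF (0.91), SRXN1 (0.90), C6orf48 (0.89) and CEBPG (0.88). HBEGF encodes a growth factor of the EGF family and CEBPG a leucine zipper transcription factor. HBEGF in HCT116 was 316 and 326 under DMSO, 995 and 839.5 under ICG-001 and 315 and 384 under C646. In PANC1 HBEGF was 424 and 474 under DMSO, 655 and 803 under ICG-001 and 336 and 342 under C646. Each of these 4 genes had its 2 highest HCT116 columns with ICG-001, a pattern that ranking by likeness to the metallothioneins selects for. Within HCT116 alone r was 0.94, 0.98, 0.91 and 0.96 for HBEGF, SRXN1, C6orf48 and CEBPG, and within PANC1 0.86, 0.72, 0.84 and 0.77. The r values describe 12 columns with shared treatments and no replicates.

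The labelled cell types were checked against marker lists. HCT116 held 6 of 10 colon epithelium markers above the limit in at least 1 column, CDX2, KRT20, EPCAM and CDH1 among them, but not CDX1, VIL1, LGALS4 or CDH17. PANC1 held 6 of 7 ductal markers, KRT7, KRT19 and SOX9 among them, and HCT116 held all 7. PANC1 also held 7 of the 10 colon markers, so the lists do not separate the lines. Acinar markers were above the limit for 2 of 4 in HCT116 and 0 of 4 in PANC1, fibroblast markers for 1 of 6 and 2 of 6, and immune markers for 2 of 5 and 1 of 5, with PTPRC and CD3D under the limit in both lines.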

How the data were processed

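Total RNA of HCT116 and PANC1 cells was labelled with biotin and hybridised to Illumina HumanHT-12 BeadChips. The deposited table holds linear signal intensity, which the authors quantile-normalized in GenomeStudio, left without background subtraction and averaged over replicate arrays. Ratios of dim genes are therefore understated. Single arrays were not analysed here. Per the study's methods, every combination of treatment and time was run as a pair of independent biological replicates. Sorted log2 values differed on average by 0.0037 to 0.0093 between columns of a line and by 0.063 to 0.066 between lines.

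Groups followed the labels. Log2 ratios of 2 columns were taken over the whole table. The detection limit was the peak of the log2 signals plus 2.33 SD of the values below the peak. A change was a ratio of at least 1.5. The 14 comparisons were drug over DMSO (8), ICG-001 over C646 (4) and DMSO 96 h over 12 h (2). The genes and the lists were chosen with earlier results of these data known. List genes were named when changed in at least 4 comparisons with DMSO, or otherwise as the up to 3 largest changes of a list, with MTF1 and SLC30A1 always named. Genes named by likeness were the 5 with the highest r. Some genes that the rules or lists name are not reported here. Other settings tried were thresholds of 1.2-fold and 2-fold, no filter, a limit at 5 SD, normexp (offset 16) with quantile normalization within a line, centring, quantile normalization over the 12 columns and, added after seeing the data, the DMSO column of the other time. The procedure was tested on simulated data. Python 3.11.15, numpy 2.4.6, pandas 2.3.3, scipy 1.17.1, matplotlib 3.10.9 and limma 3.58.1 in R 4.3.3 were used. RefSeq (GRCh38.p14) supplied promoters and current names. The build of the array annotation is not given in the sources used here.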

Additional observations from a re-analysis of the deposited data

Results flagged for a closer look

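MT2A was picked out because its ratios to DMSO lay on opposite sides of 0 in the 2 lines. In HCT116 all 4 log2 ratios were above 0, from 0.10 with C646 12 h to 1.07 with ICG-001 96 h, with a mean of 0.59. In PANC1 all 4 were below 0, from -0.79 with C646 12 h to -0.12 with ICG-001 96 h, with a mean of -0.44. The means differed by 1.03 on the log2 scale. The difference was not tested, since each column is a mean with no spread given, and the 4 ratios of a line share 2 DMSO columns. Among the 17203 genes that passed the limit in each line, 333 (1.94%) had opposite signs in this sense and 3222 (18.7%) had the same sign in all 8 comparisons. PANC1 DMSO 12 h was the highest MT2A column of that line, at 21179, and against the DMSO 96 h column the ICG-001 12 h log2 ratio of MT2A was 0.11 in place of -0.38.

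MTF1 had the same property at a smaller size. Its log2 ratios to DMSO were 0.19 to 0.54 in HCT116, with a mean of 0.37, and -0.41 to -0.09 in PANC1, with a mean of -0.20, so the means differed by 0.57. This difference was not tested either, and no MTF1 ratio reached 1.5-fold. Against the DMSO 96 h column the ICG-001 12 h log2 ratio of MTF1 in PANC1 was 0.14 in place of -0.09.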

How the results depend on the processing

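No paired analysis was possible because each group is 1 averaged column. All 28 called member ratios kept their sign with no filter, at 5 SD, after normexp, with centring and with quantile normalization over the 12 columns. With no filter on dim genes and with a limit at 5 SD all 14 counts of changed members were as reported. The members' median for C646 12 h in HCT116, 0.01 on the log2 scale, was -0.000725 after normexp and -0.02 with quantile normalization over the 12 columns, and the other 13 medians kept their sign.

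At 1.2-fold the count of changed members was 4 for C646 96 h in HCT116, 3 and 4 for ICG-001 12 h and 96 h in PANC1, 3 and 1 for C646 12 h and 96 h in PANC1, 4 and 6 for ICG-001 over C646 in PANC1, and 4 and 5 for DMSO 96 h over 12 h in HCT116 and PANC1. At 2-fold it was 1 and 4 for ICG-001 12 h and 96 h and 0 for C646 96 h in HCT116, 1 for ICG-001 96 h and 0 for C646 12 h in PANC1, 1 and 2 for ICG-001 over C646 in HCT116 at 12 and 96 h, 1 for the latter in PANC1 at 96 h, and 0 for both DMSO comparisons. After normexp it was 1 for ICG-001 96 h and 2 for C646 12 h in PANC1, 1 for ICG-001 over C646 12 h in PANC1 and 2 for DMSO over time in PANC1. Centring gave 1 for ICG-001 96 h in PANC1, where MT1E lay just past the threshold, and quantile normalization over the 12 columns gave 0 for DMSO over time in PANC1 and 4 in place of 5 for ICG-001 12 h in HCT116.

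Against the DMSO column of the other time, chosen after seeing the data, the count was 1 and 0 for C646 12 h and 96 h in HCT116, and 0 and 3 for C646 12 h and 96 h in PANC1. Under that control ICG-001 had 5 and 4 changed members in HCT116 and 0 and 2 in PANC1, where at 96 h MT1M was higher and MT2A lower, and 39 of 53 ratios kept their sign. Over all genes 13.2% and 11.5% changed for ICG-001 12 h and 96 h in HCT116 under that control, and 11.4% for C646 12 h. Beyond the threshold choices the cause of each shift was not tested. Members near the limit, MT1H in both lines and MT1M in HCT116, cannot show a fall at this signal over background.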
